A study of Drosophila melanogaster with 17 samples.

Results

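The 10 genes described here are regulators of entry into and exit from mitosis: the mitotic cyclins CycA, CycB and CycB3, the phosphatases stg (string) and twe (twine), the kinases Cdk1, polo, aurA and aurB, and fzy (fizzy). They were chosen by their FlyBase symbols and matched to the identifiers of the deposited count table, in which they are 10 of 17737 genes, and all 10 had enough reads to be tested. In dividing cells, a mitotic cyclin binds the kinase Cdk1. The phosphatase String switches the complex on by removing inhibitory phosphates, Polo and the Aurora kinases carry the cell through the division, and Fizzy directs the anaphase-promoting complex (APC/C), a ubiquitin ligase, to destroy the cyclins so that the cell can leave mitosis. In the adult fly midgut the intestinal stem cells are the main dividing cells, and loss of the receptor Notch from stem cells and their daughters is known to give clusters of dividing and enteroendocrine cells.

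RNA was sequenced from small cells positive for green fluorescent protein, sorted from the intestines of adult virgin female Drosophila melanogaster and labelled as intestinal progenitors. Each library came from 100 pooled guts, and the 17 libraries fall into 6 groups. The Notch RNAi genotype (esgts/NRNAi in the labels) was studied with L. brevis (n = 3), with L. plantarum (n = 3) and germ-free (n = 3). The control genotype (esgts) was studied with L. brevis (n = 3), with L. plantarum (n = 3) and germ-free (n = 2, after the loss of a sample at RNA extraction). All groups share the esgts background, whose transgenes the labels do not spell out. All flies spent 5 days at 25 °C, an overnight step in which they received a single bacterial species or stayed germ-free, and 5 days at 29 °C. The design asks what Notch knockdown changes in the sorted cells, and whether a single bacterial species adds to it.

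Library totals ran from 24192918 to 38237532 counts, and genes annotated as ribosomal RNA took between 10.03% and 18.9% of them. Notch itself (N), the gene targeted by the RNAi, had between 52.7 and 82.9 CPM in the 9 Notch RNAi libraries, against 166 to 224 CPM in the 8 control libraries. CPM is the count scaled to library size, here by edgeR's TMM factors. Messages of other gut cell types were present: a list of 9 enteroendocrine genes summed to between 16410 and 52505 CPM in Notch RNAi libraries, against 12629 to 20404 CPM in controls, with the hormone gene Orcokinin giving the most. The 8 progenitor markers found in the table summed to between 1012 and 1125 CPM in Notch RNAi libraries, against 1877 to 2276 CPM in controls. Of these 8, 4 were lower in every Notch RNAi library than in any control and 3 were higher: the Notch targets klu and E(spl)m3-HLH had at most 13.9 and 8.68 CPM in Notch RNAi libraries, against at least 203 and 318 CPM in controls, while the Notch ligand Delta had 89.3 to 216 CPM in Notch RNAi libraries, against 9.24 to 37.3 CPM in controls. A list of 9 enterocyte genes summed to between 5767 and 12171 CPM in Notch RNAi libraries with L. brevis, against 12553 to 13778 CPM in the controls, and to between 5804 and 10491 CPM in germ-free Notch RNAi libraries, against 10824 to 22193 CPM in the controls, while with L. plantarum the genotypes overlapped. A list of 6 fat body genes summed to between 357 and 536 CPM in Notch RNAi libraries with L. brevis, against 197 to 264 CPM in the controls. With L. plantarum it summed to between 396 and 719 CPM in Notch RNAi libraries, against 181 to 237 CPM in the controls. In germ-free flies the genotypes overlapped. Nearly all of this fat body sum came from Fst, at 171 to 933 CPM over the libraries. The gene apolpp had at most 15.0 CPM, and Yp1, Yp2, Yp3 and Lsp2 had at most 1.69 CPM. A list of 6 haemocyte genes summed to between 44.1 and 118 CPM in Notch RNAi libraries, against 13.5 to 23.3 CPM in controls, but 4 of its 6 genes, Hml, NimC1, eater and He, stayed at or below 0.686 CPM in every library. The part of these shifts in the results below was not tested. In bulk samples, fewer cells of a type and less RNA per cell cannot be told apart, and a higher level of a mitotic gene does not separate more dividing cells from more message per cell.

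With Notch knocked down, 9 of the 10 mitotic regulators were higher and twe was lower. Averaged over the 3 microbial conditions, the rises ran from 2.33-fold for CycA to 10.1-fold for CycB, and all 10 members passed the test (edgeR quasi-likelihood test, Benjamini-Hochberg adjusted p under 0.05 over 11786 genes), 9 higher and 1 lower. In that average 56.6% of all genes tested were called, and 29.6% were called higher. With L. brevis all 10 members were called, 9 of them higher, while 42.6% of all genes were called and 22.3% were called higher. With L. plantarum all 10 were called, again 9 of them higher, while 33.8% of all genes were called and 17.6% were called higher. In germ-free flies 9 were called, all higher, while 32.2% of all genes were called and 17.5% were called higher. The median log2 fold change of the members was 2.22 with L. brevis, 1.68 with L. plantarum and 1.87 in germ-free flies, whereas the median over all tested genes was 0.00, 0.04 and 0.01. In each condition the Notch RNAi and control libraries did not overlap for any of the 10 members. The share of all genes so separated was not counted, so this only describes the levels.

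**Figure D1:**
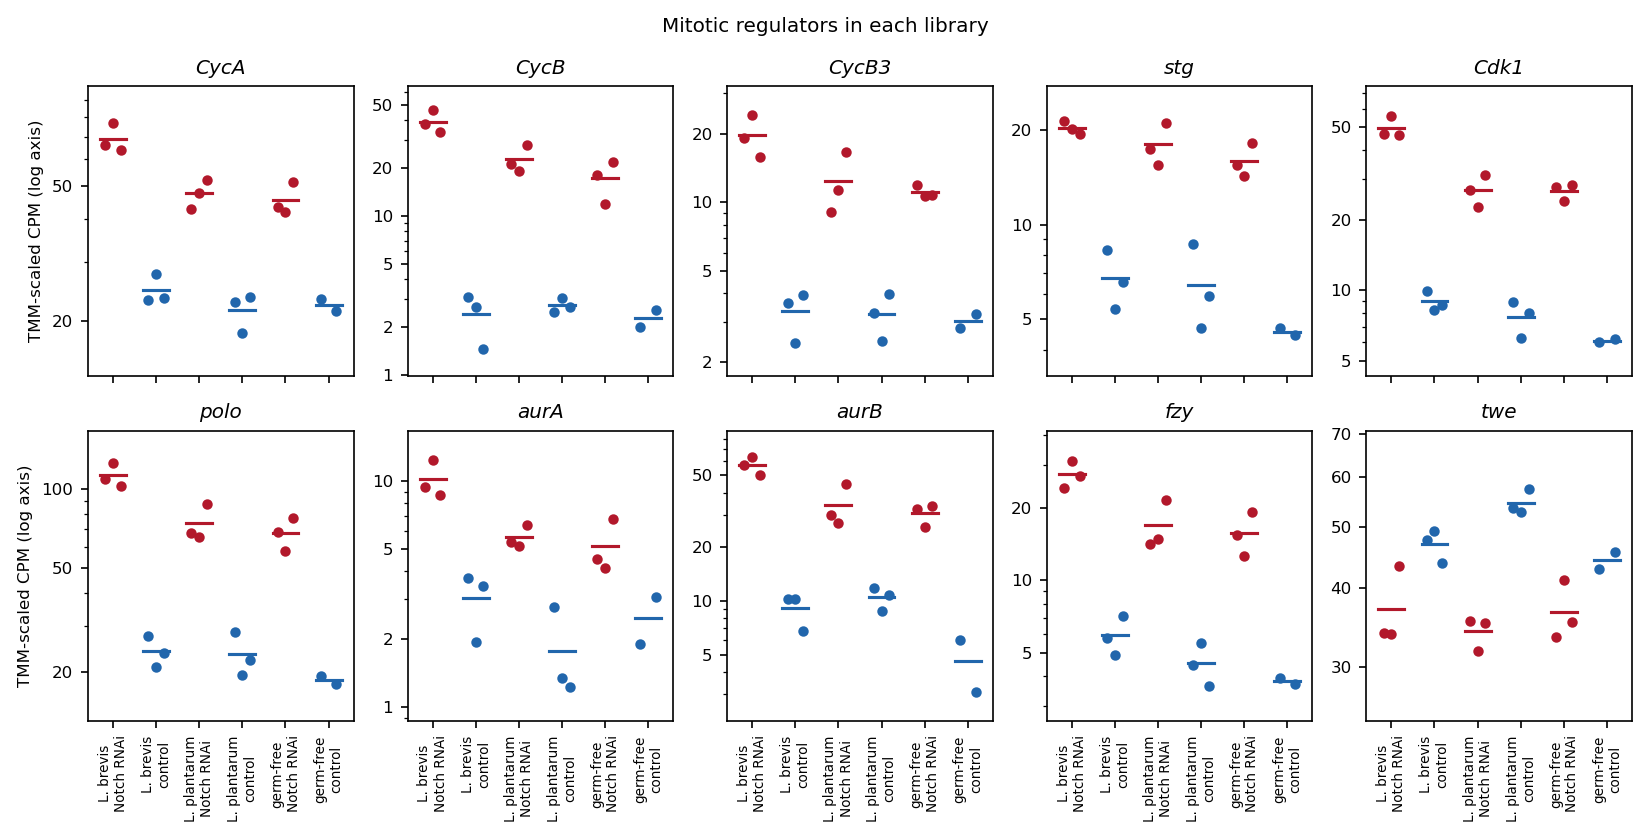
TMM-scaled CPM on log axes for the 10 mitotic regulators in each of the 17 libraries (points), with the group mean as a bar; Notch RNAi groups are red and control groups blue. In 9 panels the red points lie above the blue ones. In the panel of twe they lie below within each condition, but the highest Notch RNAi library (43.3 CPM) lies above the lowest control library (42.9 CPM).

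Among the cyclins, which give Cdk1 its activity and its choice of substrates, CycB moved most. This gene (FBgn0000405, chr2R:22803521-22806948, minus strand, protein coding; coordinates here are those of the Ensembl annotation of BDGP6) encodes Cyclin B. With L. brevis, CycB had 37.9, 46.1 and 33.7 CPM in Notch RNAi libraries, against 3.10, 2.67 and 1.46 CPM in control libraries. With L. plantarum it had 21.2, 19.2 and 27.8 CPM in Notch RNAi libraries, against 2.48, 3.03 and 2.68 CPM in controls. In germ-free flies it had 18.1, 11.9 and 21.9 CPM in Notch RNAi libraries, against 2.00 and 2.55 CPM in controls. The lowest Notch RNAi library thus stood above every control library, and the L. brevis group stood above the other Notch RNAi groups. The log2 fold change was 4.03 (SE 0.28) with L. brevis, 3.06 (SE 0.27) with L. plantarum and 2.93 (SE 0.32) in germ-free flies, and 3.34 (SE 0.17, edgeR adjusted p = 2.7e-10) on average.

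CycA (FBgn0000404, chr3L:11826719-11833578), the cyclin that flies need for mitosis and that also acts in S phase, showed the smallest rise of the 9. It had between 42.0 and 76.7 CPM in Notch RNAi libraries, against 18.5 to 27.5 CPM in controls. Its log2 fold change was 1.48 (SE 0.12) with L. brevis, 1.14 (SE 0.12) with L. plantarum and 1.03 (SE 0.14) in germ-free flies. CycB3 (FBgn0015625, chr3R:24867934-24870816), the B-type cyclin associated with anaphase, had between 9.12 and 24.0 CPM in Notch RNAi libraries, against 2.44 to 3.98 CPM in controls. Its log2 fold change was 2.55 (SE 0.25) with L. brevis, 1.92 (SE 0.25) with L. plantarum and 1.88 (SE 0.29) in germ-free flies.

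The ratio of CycB to CycA reads per kilobase of exon sets the cyclin that moved most against the one that moved least. This ratio and the 3 others given below were chosen after the levels were seen, so they are descriptions, with no test. That ratio was 0.550, 0.576 and 0.504 in Notch RNAi libraries with L. brevis, against 0.129, 0.0928 and 0.0595 in controls with L. brevis. It was 0.474, 0.386 and 0.509 with L. plantarum under Notch RNAi, against 0.105, 0.157 and 0.109 in the matching controls. In germ-free flies it was 0.399, 0.271 and 0.407 under Notch RNAi, against 0.0822 and 0.114 in controls. CycA was the higher per length in every library, and the gap to CycB was narrower in all 9 Notch RNAi libraries than in any control. The log2 ratio of CycB to CycA was on average 2.12 higher under Notch RNAi. The log2 ratio of CycB3 to CycA was 0.90 higher under Notch RNAi, and again no Notch RNAi library overlapped the controls. Per kilobase, CycB was the lowest member by mean in every control group, at 0.791 ± 0.280 CPM with L. brevis, 0.896 ± 0.0917 CPM with L. plantarum (SD, n = 3 each) and 0.747 ± 0.127 CPM in germ-free flies (SD, n = 2). Its range overlapped that of the next member, CycB3, in the L. brevis and L. plantarum controls but not in germ-free controls. Under Notch RNAi CycB ranked 7 of 10 in each group, at 12.9 ± 2.07, 7.47 ± 1.47 and 5.68 ± 1.66 CPM per kilobase in the same order of conditions (SD, n = 3 each). There its range overlapped that of fzy, the member above, in each group. It overlapped that of stg, the member below, with L. plantarum and in germ-free flies.

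**Figure D2:**
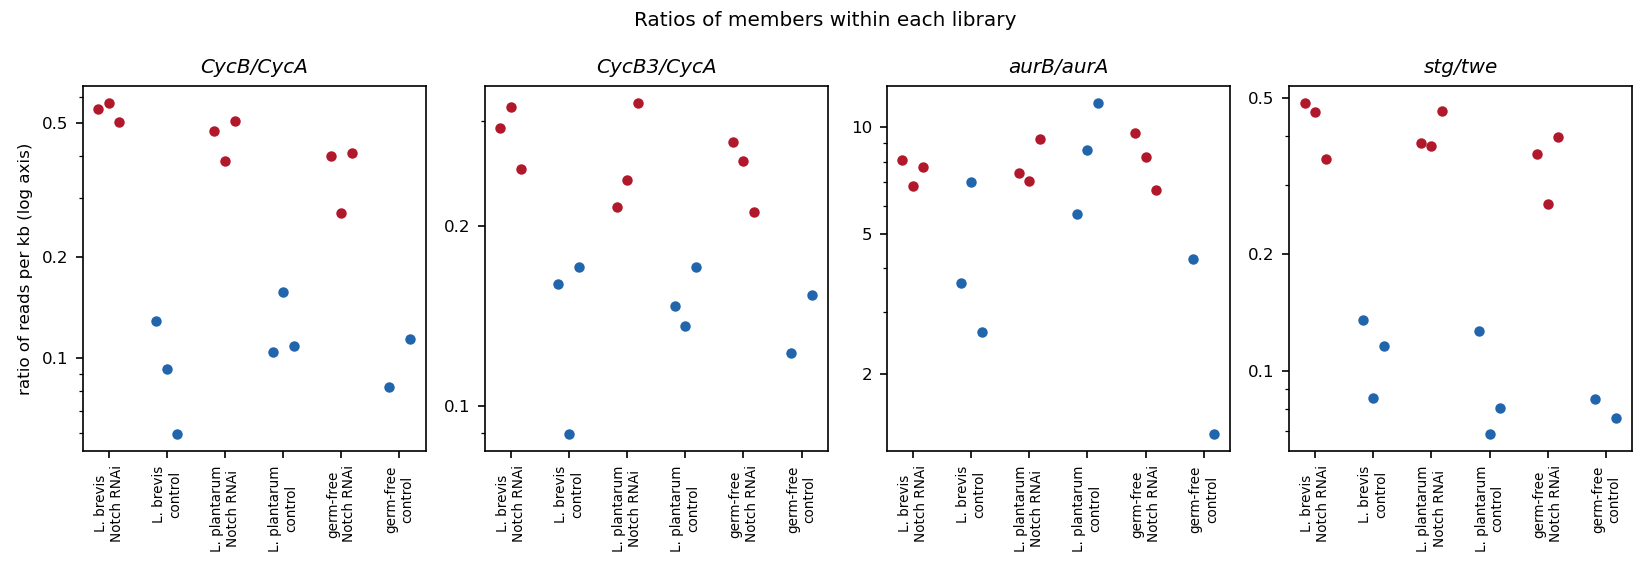
Ratios of reads per kilobase of exon between pairs of members within each library, on log axes; each point is a library, Notch RNAi in red and control in blue. CycB/CycA, CycB3/CycA and stg/twe separate the genotypes, whereas aurB/aurA of Notch RNAi libraries, 6.64 to 9.61, falls inside the control range of 1.35 to 11.7.

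Cdk1 (FBgn0004106, chr2L:10384739-10386262), the kinase at the centre of mitotic entry, had the lowest adjusted p of the members. With L. brevis it had 46.9, 56.1 and 46.2 CPM in Notch RNAi libraries, against 9.99, 8.27 and 8.71 CPM in controls. With L. plantarum it had 26.9, 22.9 and 31.2 CPM in Notch RNAi libraries, against 8.88, 6.23 and 7.99 CPM in controls. In germ-free flies it had 27.8, 24.1 and 28.4 CPM in Notch RNAi libraries, against 6.01 and 6.18 CPM in controls. The Notch RNAi level with L. brevis was above those of the other Notch RNAi groups, which overlapped each other. The average log2 fold change was 2.14 (SE 0.09, edgeR adjusted p = 3.8e-11).

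The 2 genes for Cdc25-type phosphatases, which remove the inhibitory phosphates from Cdk1, went in opposite directions. String (stg, FBgn0003525, chr3R:29251826-29255800) is the Cdc25 of most somatic divisions, and Twine (twe, FBgn0002673, chr2L:16259414-16261877) is known for its role in meiosis and in early embryos. stg had 21.4, 20.2 and 19.5 CPM in Notch RNAi libraries with L. brevis, against 8.30, 5.40 and 6.57 CPM in the controls. It had 17.5, 15.5 and 21.1 CPM in Notch RNAi libraries with L. plantarum, against 8.70, 4.67 and 5.93 CPM in the controls. It had 15.5, 14.3 and 18.2 CPM in germ-free Notch RNAi libraries, against 4.67 and 4.45 CPM in germ-free controls. The genotypes did not overlap for stg in any condition, and its average log2 fold change was 1.63 (SE 0.13, edgeR adjusted p = 2.2e-08).

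twe had 34.0, 33.8 and 43.3 CPM in Notch RNAi libraries with L. brevis, against 47.6, 49.3 and 43.9 CPM in the controls. It had 35.5, 31.8 and 35.3 CPM in Notch RNAi libraries with L. plantarum, against 53.5, 52.7 and 57.4 CPM in the controls. It had 33.5, 41.3 and 35.4 CPM in germ-free Notch RNAi libraries, against 42.9 and 45.7 CPM in germ-free controls. The groups did not overlap in any condition, but with L. brevis the nearest libraries were close together. twe fell by 0.67 (SE 0.11) on the log2 scale with L. plantarum, where every alternative kept the call. It fell by 0.34 (SE 0.11, edgeR adjusted p = 0.0179) with L. brevis, where the call was lost without Notch RNAi replicate 1 (adjusted p = 0.0795), without Notch RNAi replicate 2 (adjusted p = 0.0834), without control replicate 2 (adjusted p = 0.064) and in a fit of these groups alone (adjusted p = 0.0626). In germ-free flies the log2 fold change of twe was -0.27 (SE 0.12, edgeR adjusted p = 0.0992), and the call was gained without Notch RNAi replicate 2 (adjusted p = 0.0253). The log2 ratio of stg to twe was on average 2.08 higher under Notch RNAi, and no Notch RNAi library overlapped the controls.

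The level of twe set it apart from the other members as well. Per kilobase of exon, twe was the highest of the 10 members in all 3 control groups, at 19.7 ± 1.16 CPM with L. brevis, 22.9 ± 1.05 CPM with L. plantarum (SD, n = 3 each) and 18.6 ± 0.843 CPM without bacteria (SD, n = 2). Its libraries did not overlap those of the next member in any control group. Under Notch RNAi twe ranked 5 of 10, at 15.6 ± 2.29, 14.4 ± 0.863 and 15.4 ± 1.70 CPM per kilobase with L. brevis, with L. plantarum and in germ-free flies (SD, n = 3 each). There its range overlapped that of fzy with L. brevis, and that of CycA with L. plantarum and in germ-free flies. A list of 8 germline genes of the ovary summed to between 7.69 and 10.8 CPM in Notch RNAi libraries, against 5.96 to 9.09 CPM in controls. The highest of the list were nanos, at 2.26 to 5.03 CPM over all libraries, and grk, at 0.963 to 4.14 CPM. osk was at 0 in every control library and had at most 0.249 CPM in any library. Of the exon bases of twe, 98 of 2379 are shared with EndoGI on the opposite strand, and strand use in the counting is not given in the sources used here. EndoGI, looked up after the values of twe were seen, had 180 to 231 CPM in Notch RNAi libraries, against 265 to 368 CPM in controls, with an average log2 fold change of -0.56 (SE 0.05, edgeR adjusted p = 2.0e-07). If strand was not used, reads of twe and EndoGI from the shared bases cannot be told apart.

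Of the mitotic kinases, polo (FBgn0003124, chr3L:20309654-20313466), which acts on spindle poles, kinetochores and the cleavage furrow, rose in every condition. With L. brevis it had 108, 126 and 103 CPM in Notch RNAi libraries, against 27.6, 20.9 and 23.8 CPM in controls. With L. plantarum it had 67.8, 65.6 and 87.7 CPM in Notch RNAi libraries, against 28.5, 19.5 and 22.4 CPM in controls. In germ-free flies it had 68.2, 58.0 and 77.7 CPM in Notch RNAi libraries, against 19.4 and 18.01 CPM in controls. The genotypes were separated in all conditions, with an average log2 fold change of 1.91 (SE 0.10, edgeR adjusted p = 2.4e-10).

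aurB (FBgn0024227, chr2L:10856797-10858094) encodes Aurora B, the kinase of the chromosomal passenger complex. With L. brevis it had 57.2, 63.4 and 50.3 CPM in Notch RNAi libraries, against 10.2, 10.2 and 6.76 CPM in controls. With L. plantarum it had 30.0, 27.2 and 44.7 CPM in Notch RNAi libraries, against 11.8, 8.72 and 10.8 CPM in controls. In germ-free flies it had 32.6, 25.6 and 33.8 CPM in Notch RNAi libraries, against 6.07 and 3.11 CPM in controls. Every Notch RNAi library lay above every control library, and the germ-free controls were the lowest of all. The log2 fold change of aurB was 2.66 (SE 0.25) with L. brevis, 1.70 (SE 0.24) with L. plantarum and 2.72 (SE 0.30) in germ-free flies, and 2.36 (SE 0.15, edgeR adjusted p = 5.2e-09) on average. Per kilobase of exon, aurB was the highest member in every Notch RNAi group, at 48.2 ± 5.53 CPM with L. brevis, 28.7 ± 7.92 CPM with L. plantarum and 25.9 ± 3.74 CPM in germ-free flies (SD, n = 3 each), and in each of them its range overlapped that of the next member, Cdk1.

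aurA (FBgn0000147, chr3R:11963124-11964826) encodes Aurora A, the kinase of centrosomes and spindle poles. With L. brevis it had 9.43, 12.4 and 8.71 CPM in Notch RNAi libraries, against 3.74, 1.94 and 3.43 CPM in controls. With L. plantarum it had 5.39, 5.14 and 6.43 CPM in Notch RNAi libraries, against 2.78, 1.35 and 1.22 CPM in controls. In germ-free flies it had 4.52, 4.13 and 6.78 CPM in Notch RNAi libraries, against 1.91 and 3.07 CPM in controls. aurA had the fewest counts of the members under Notch RNAi and the largest SE in each condition. Its log2 fold change was 1.74 (SE 0.32) with L. brevis, 1.66 (SE 0.33) with L. plantarum and 1.05 (SE 0.37, edgeR adjusted p = 0.0409) in germ-free flies. The germ-free call was lost with the replicate block (adjusted p = 0.072) and in 4 of the 5 fits that left out a germ-free library: without control replicate 1 (log2 fold change 0.75, adjusted p = 0.289), without control replicate 2 (adjusted p = 0.0531), without Notch RNAi replicate 1 (adjusted p = 0.0511) and without Notch RNAi replicate 3 (adjusted p = 0.148). Of the exon bases of aurA, 153 of 1577 overlap CG12213 on the opposite strand, whose average log2 fold change was 0.06 (SE 0.07, edgeR adjusted p = 0.48). CG12213 had 24.4 to 30.8 CPM in Notch RNAi libraries, against 22.5 to 33.2 CPM in controls, more than aurA in every library. Reads of aurA and CG12213 from the shared bases cannot be told apart if strand was not used. The log2 ratio of aurB to aurA was on average 0.86 higher under Notch RNAi, with differences of 0.89 with L. brevis, -0.08 with L. plantarum and 1.76 in germ-free flies.

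fzy (FBgn0001086, chr2L:16310956-16313097), the Cdc20 activator of the APC/C in mitosis, had 24.2, 31.2 and 27.1 CPM in Notch RNAi libraries with L. brevis, against 5.77, 4.87 and 7.09 CPM in the controls. It had 14.2, 14.9 and 21.6 CPM in Notch RNAi libraries with L. plantarum, against 4.44, 5.47 and 3.63 CPM in the controls. It had 15.4, 12.6 and 19.2 CPM in germ-free Notch RNAi libraries, against 3.91 and 3.71 CPM in germ-free controls. Every Notch RNAi library lay above every control library, and the average log2 fold change was 2.05 (SE 0.13, edgeR adjusted p = 2.4e-09). fzy shares 62 of its 1996 exon bases with cact on the opposite strand, and cact, named for this overlap, had an average log2 fold change of 0.62 (SE 0.06, edgeR adjusted p = 2.0e-07). Here too, reads from the shared bases cannot be told apart if strand was not used.

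**Figure D3:**
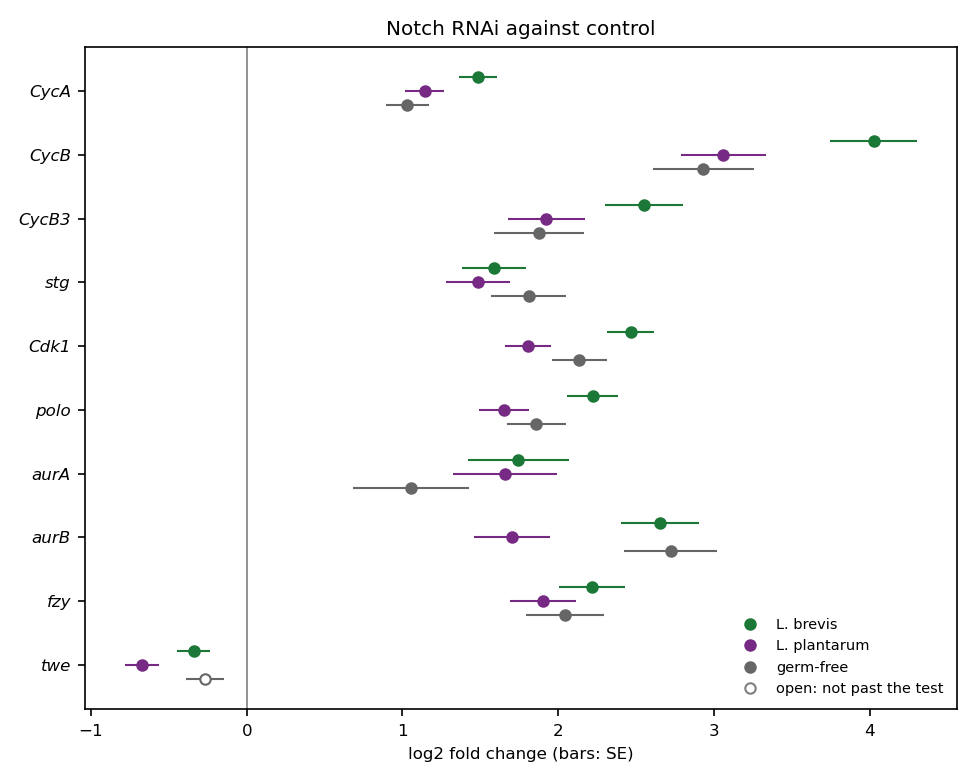
Log2 fold change of Notch RNAi against control for each member with L. brevis, with L. plantarum and in germ-free flies (points; bars are SE; filled points passed the test). CycB lies farthest to the right at 4.03, 3.06 and 2.93, and twe is the only member left of 0, with its germ-free point open.

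Within Notch RNAi flies, most of these genes were higher again with L. brevis. Against germ-free Notch RNAi flies, 7 of the 10 members were higher with L. brevis and none was lower, where 9.36% of all genes were called. The median log2 fold change of the members was 0.81, whereas that of all tested genes was -0.00. CycB rose most, to a mean of 39.3 ± 6.31 CPM with L. brevis, against 17.3 ± 5.05 CPM in germ-free flies (SD, n = 3 each; log2 fold change 1.18, SE 0.25, edgeR adjusted p = 0.00942). The other called members were aurB (log2 fold change 0.90, SE 0.23), Cdk1 (0.89, SE 0.14), CycB3 (0.82, SE 0.23), fzy (0.81, SE 0.20), polo (0.73, SE 0.15) and CycA (0.59, SE 0.12), with edgeR adjusted p between 0.00221 and 0.0391. Of the members not called, aurA had a log2 fold change of 0.98 (95% interval 0.29 to 1.68, edgeR adjusted p = 0.0632), stg 0.35 (95% interval -0.09 to 0.78) and twe 0.01 (95% interval -0.22 to 0.25). For 9 members, twe being the exception, every L. brevis library stood above every germ-free library. How many of all genes were separated in this way was not counted.

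In the same Notch RNAi libraries the 9 enteroendocrine genes summed to between 16410 and 27922 CPM with L. brevis, against 40028 to 52505 CPM in germ-free flies, and the 6 haemocyte genes to between 94.3 and 118 CPM with L. brevis, against 44.1 to 58.9 CPM in germ-free flies. Their part in the result was not tested.

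The number of members called between L. brevis and germ-free Notch RNAi flies depended on single libraries. It was 7 with all libraries, 2 without germ-free replicate 2, 3 without L. brevis replicate 2, 4 without germ-free replicate 1, 5 without L. brevis replicate 1 and 7 without replicate 3 of either group. The share of all genes called moved as well: it was 9.36% with all libraries, 2.77% without germ-free replicate 2, 3.3% without L. brevis replicate 2, 4.38% without germ-free replicate 1 and 4.75% without L. brevis replicate 1. Without replicate 3 the share was 7.94% where the library was germ-free and 8.21% where it was L. brevis. Cdk1 and CycA kept the call in all of these fits, while CycB lost it without germ-free replicate 2 (edgeR adjusted p = 0.0501). With DESeq2 8 members were called, the additional one being aurA, and 14.2% of all genes. In the authors' deposited table of this comparison, 8 of the 10 members had a false discovery rate under 0.05, all higher with L. brevis, among them aurA with a log2 fold change of 0.98 and a false discovery rate of 0.036. The share of all 10201 genes in that table under this threshold was not counted.

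Against L. plantarum in the same genotype, 6 members were higher with L. brevis and none was lower, where 14.4% of all genes were called. They were Cdk1 (log2 fold change 0.88, SE 0.14, edgeR adjusted p = 0.00443), CycB (0.79, SE 0.24), aurB (0.75, SE 0.23), fzy (0.70, SE 0.20), polo (0.61, SE 0.15) and CycA (0.53, SE 0.12), the last 5 with edgeR adjusted p between 0.0134 and 0.0458. The log2 fold changes of aurA (0.85, edgeR adjusted p = 0.0782) and CycB3 (0.67, edgeR adjusted p = 0.0647) did not pass. Here too the count turned on single libraries: 1 member, Cdk1, was called without L. brevis replicate 2, without L. plantarum replicate 1 or without L. plantarum replicate 2, 3 were called without L. brevis replicate 3, 4 without L. brevis replicate 1 and 7 without L. plantarum replicate 3. The share of all genes called was 3.06%, 5.64% and 2.13% in the first 3 of these fits, 9.48% without L. brevis replicate 3, 6.84% without L. brevis replicate 1 and 14.0% without L. plantarum replicate 3. DESeq2 called 8 members and 21.2% of all genes, and the replicate block 5 members and 14.8% of all genes. The authors' deposited table gave a false discovery rate under 0.05 to 6 members, all higher with L. brevis, but its share of all genes was not counted. This comparison and the one against germ-free flies share the L. brevis libraries.

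L. plantarum against germ-free Notch RNAi flies called none of the 10 members with edgeR or DESeq2, where edgeR called 0.136% and DESeq2 1.32% of all genes. An unadjusted edgeR p under 0.05 was reached by 1250 of all 11786 genes, but by none of the 10 members. The log2 fold changes ran from -0.10 to 0.39 with a median of 0.13, and L. plantarum and germ-free libraries overlapped for every member. The upper bounds of the 95% intervals ran from 0.13 for twe to 0.93 for CycB.

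**Figure D4:**
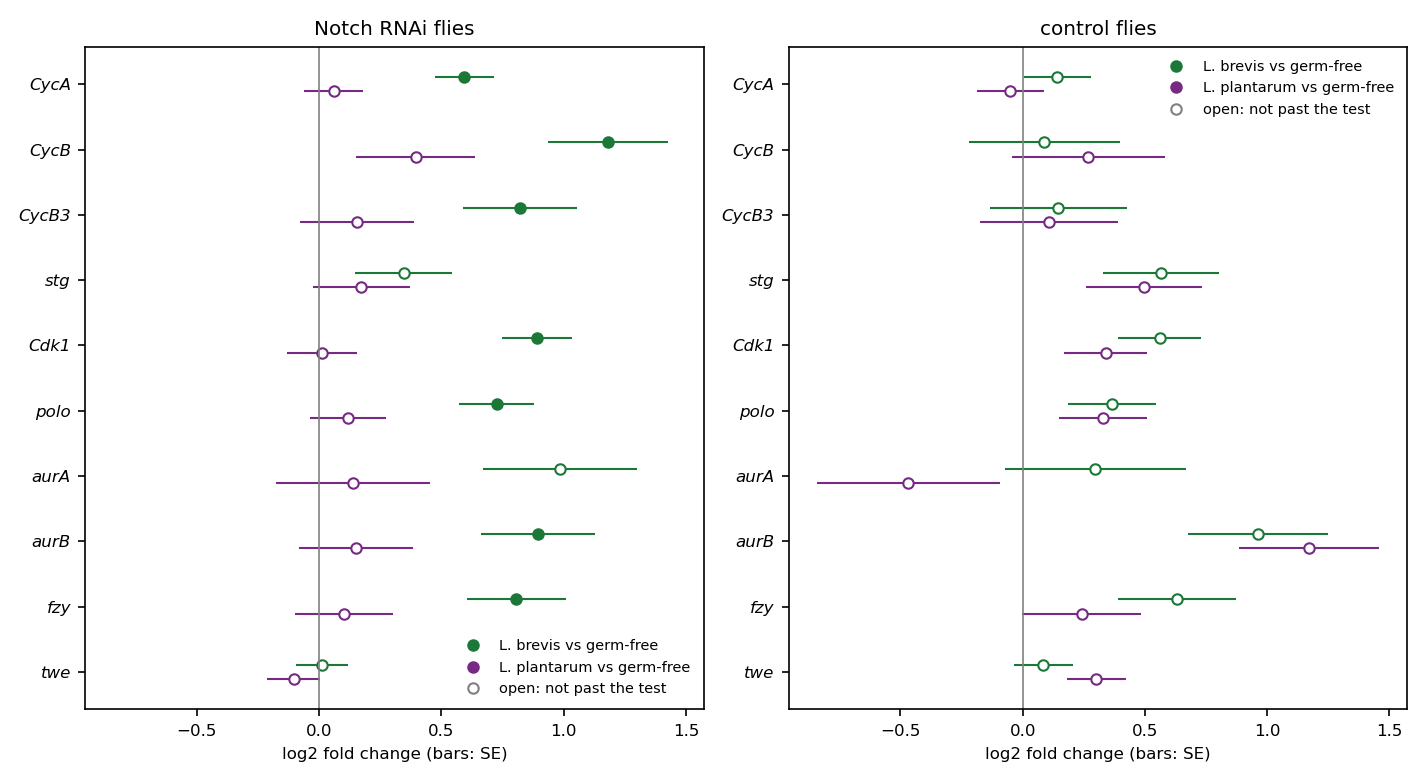
Log2 fold change of L. brevis (green) and of L. plantarum (purple) against germ-free flies for each member, in Notch RNAi flies (left) and in control flies (right); bars are SE and filled points passed the test. Filled points occur only for L. brevis in Notch RNAi flies, where 7 members lie between 0.59 and 1.18, and both comparisons in a panel share the germ-free libraries.

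In control flies no member passed the edgeR test in any comparison between microbial conditions, although the germ-free group has only 2 libraries. With L. brevis against germ-free controls, 7.97% of all genes were called. An unadjusted edgeR p under 0.05 was reached by 4 members and by 2978 of all 11786 genes. The median of the members was 0.33 on the log2 scale, against 0.01 over all genes. aurB had a log2 fold change of 0.96 (SE 0.29, edgeR adjusted p = 0.0517), fzy 0.63 (SE 0.24, adjusted p = 0.12), stg 0.57 (SE 0.24, adjusted p = 0.148) and Cdk1 0.56 (SE 0.17, adjusted p = 0.0532). The L. brevis and germ-free libraries of 5 members, these 4 and polo, did not overlap, but the share of all genes so separated was not counted. DESeq2 called aurB and Cdk1, beside 12.3% of all genes. Without germ-free replicate 1, where a single germ-free control remained, the log2 fold change of aurB was 1.54, and its call in that fit is not given. Without L. brevis replicate 3 edgeR called aurB (log2 fold change 1.13, adjusted p = 0.0297), beside 9.37% of all genes. That L. brevis library held 912 CPM of a list of 9 visceral muscle genes, the most of any library. The fat body list, nearly all of it Fst, summed to between 197 and 264 CPM in the L. brevis controls. In the germ-free controls it summed to between 472 and 943 CPM, without overlap. The part of either in the result was not tested.

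With L. plantarum against germ-free controls, 0.161% of all genes were called. An unadjusted edgeR p under 0.05 was reached by 2 members and by 1709 of all 11786 genes. The log2 fold changes of the members ran from -0.47 to 1.17, the highest being that of aurB (SE 0.29, edgeR adjusted p = 0.0949). DESeq2 called aurB here (adjusted p = 0.00445), beside 2.68% of all genes. In the authors' deposited table aurB was the only member with a false discovery rate under 0.05, at 0.0153. The share of all genes in that table was not counted. Between L. brevis and L. plantarum controls edgeR called 2.81% of all genes, and DESeq2 called no member, beside 7.29% of all genes. An unadjusted edgeR p under 0.05 was reached by 1 member and by 2519 of all 11786 genes. The log2 fold changes of the members ran from -0.22 to 0.76. A single member was called there when L. plantarum control replicate 1 was left out, beside 11% of all genes in that fit. The aurB levels given above show that every control library with bacteria lay above both germ-free controls.

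Whether the Notch RNAi effect itself differed between microbial conditions was tested as a difference of effects, and no member passed in any of the 3 tests with edgeR or DESeq2. DESeq2 called 3.65% of all genes for L. brevis against germ-free flies and 1.43% for L. plantarum against germ-free flies. For L. brevis against L. plantarum it called 0.552%. The shares and p-values below are those of edgeR. For L. brevis against germ-free flies 0.798% of all genes were called, and 2 members, CycB (difference of log2 fold changes 1.09, SE 0.39, edgeR adjusted p = 0.198) and CycA (0.45, SE 0.18, adjusted p = 0.246), had an unadjusted p under 0.05. So did 1818 of all 11786 genes. For L. plantarum against germ-free flies 0.0255% of all genes were called, and 2 members had an unadjusted p under 0.05, among them aurB with a difference of -1.02 (SE 0.37, edgeR adjusted p = 0.299). Of all 11786 genes, 1427 had such an unadjusted p. For L. brevis against L. plantarum 0.017% of all genes were called, and the median difference of the members was 0.46. Here 1107 of all 11786 genes and 5 members had an unadjusted p under 0.05. The 5 were twe and CycB (0.97, SE 0.37), aurB (0.95, SE 0.34), Cdk1 (0.66, SE 0.21) and polo (0.57, SE 0.22), the last 4 with edgeR adjusted p between 0.362 and 0.463. The rise with L. brevis was thus called in Notch RNAi flies and not in controls, but no member passed the test of that difference. These tests share the libraries of the groups they have in common.

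The partners of these regulators were followed in 4 lists of 39 genes in all, every one of them tested. In the average Notch RNAi effect 26 were called, 20 higher and 6 lower, beside 56.6% of all genes, and the median over the lists was 0.21 on the log2 scale, against 0.02 over all genes. The same median over the 10 members was 1.98. The partners called numbered 21 with L. brevis, 14 with L. plantarum and 15 in germ-free flies, beside 42.6%, 33.8% and 32.2% of all genes, and the counts with L. plantarum and in germ-free flies lie near that background.

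Of 11 kinases, phosphatases and other proteins acting on Cdk1, 5 were called, 3 higher and 2 lower, with a median of 0.12. Cks30A, a small Cdk-binding protein, rose by far the most, to between 17.6 and 37.4 CPM in Notch RNAi libraries, against 1.64 to 6.54 CPM in controls (log2 fold change 2.86, SE 0.18, edgeR adjusted p = 2.5e-09). mei-41, the ATR checkpoint kinase, rose by 0.75 (SE 0.23) at a mean of 2.71 CPM. Wee1, a kinase that adds the inhibitory phosphate to Cdk1, had a log2 fold change of 0.21 (SE 0.08, edgeR adjusted p = 0.0377), a call that 9 alternatives lost. Mat1, a subunit of the Cdk-activating kinase, fell by 0.37 (SE 0.07), and Cks85A fell by 0.16 (SE 0.06, edgeR adjusted p = 0.042), a call that 12 alternatives lost. Of the exon bases of Cks85A 73.7% are shared with CG8112 on the opposite strand, so its counts are uncertain, as are those of Wee1, which shares 12.6% with Rat1.

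Of 5 genes of the Greatwall and PP2A branch, which holds back the phosphatase that opposes Cdk1, 4 were called. gwl, the Greatwall kinase, rose to between 7.09 and 22.6 CPM in Notch RNAi libraries, against 1.30 to 3.88 CPM in controls (log2 fold change 2.63, SE 0.20, edgeR adjusted p = 1.4e-08). Its substrate endos had a log2 fold change of 0.17 (SE 0.05), the scaffold subunit Pp2A-29B one of 0.16 (SE 0.05) and the regulatory subunit tws one of -0.15 (SE 0.06, edgeR adjusted p = 0.0482), with the call of tws lost in 15 alternatives and that of Pp2A-29B without germ-free control replicate 1 (adjusted p = 0.052).

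Of 15 APC/C subunits and cofactors, 10 were called, 9 higher and 1 lower, with a median of 0.32. The one that fell was fzr (fizzy-related), the Cdh1 activator that takes over from Fizzy at mitotic exit and in cells that stop dividing or enter endocycles. fzr had between 38.2 and 54.7 CPM in Notch RNAi libraries with L. brevis, between 35.5 and 48.9 CPM with L. plantarum and between 39.4 and 43.5 CPM in germ-free flies. In controls it had between 130 and 165 CPM with L. brevis, between 143 and 165 CPM with L. plantarum and between 133 and 157 CPM in germ-free flies. No Notch RNAi library came near any control. The log2 fold change of fzr was -1.65 with L. brevis, -1.77 with L. plantarum and -1.80 in germ-free flies, and -1.74 (SE 0.09, edgeR adjusted p = 2.0e-10) on average, opposite to the 2.05 of fzy. Rca1, an inhibitor of the Fizzy-related form of the APC/C, rose by 0.74 (SE 0.07), and the subunits mr and ida rose by 0.53 each (SE 0.08 and 0.14). APC7 also passed, with a log2 fold change of 1.70 (SE 0.52), but at a mean of 0.412 CPM.

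Of 8 partners of Aurora and Polo kinases, 7 were called, 5 higher and 2 lower, with a median of 0.79. bora, an activator of Aurora A and Polo, was nearly absent from controls, with 0 to 24 counts per library, against 62 to 394 counts in Notch RNAi libraries. Its fitted average log2 fold change was 4.59 (SE 0.37, edgeR adjusted p = 3.7e-08). In germ-free controls it had at most 3 counts per library, so that there it was at least 20.6-fold higher under Notch RNAi, with 3 counts per library put in the control group. borr (Borealin-related), which binds Aurora B in the passenger complex, rose to between 27.4 and 72.1 CPM in Notch RNAi libraries, against 3.63 to 9.85 CPM in controls (log2 fold change 2.76, SE 0.12, edgeR adjusted p = 4.9e-11). Det (Deterin, the fly Survivin), another subunit of that complex, rose by 1.06 (SE 0.10) and SAK (the Polo-like kinase of centriole duplication) by 0.89 (SE 0.06). mtrm (matrimony), an inhibitor of Polo in female meiosis, fell by 1.87 (SE 0.43, edgeR adjusted p = 0.00153) on average, but with at most 31 counts in any library. In germ-free flies mtrm had 1 to 5 counts in Notch RNAi libraries, against 24 to 29 in controls. It had 9 to 19 against 19 to 31 counts with L. brevis, and 1 to 7 against 2 to 10 with L. plantarum. Neither of these last differences was called. mei-38 fell by 0.17 (SE 0.05) on average. Its log2 fold change was 0.04 with L. brevis, -0.35 with L. plantarum and -0.21 in germ-free flies, of which only the second was called. Exon bases are shared with a neighbour for 18.1% of SAK and 23.6% of mei-38.

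**Figure D5:**
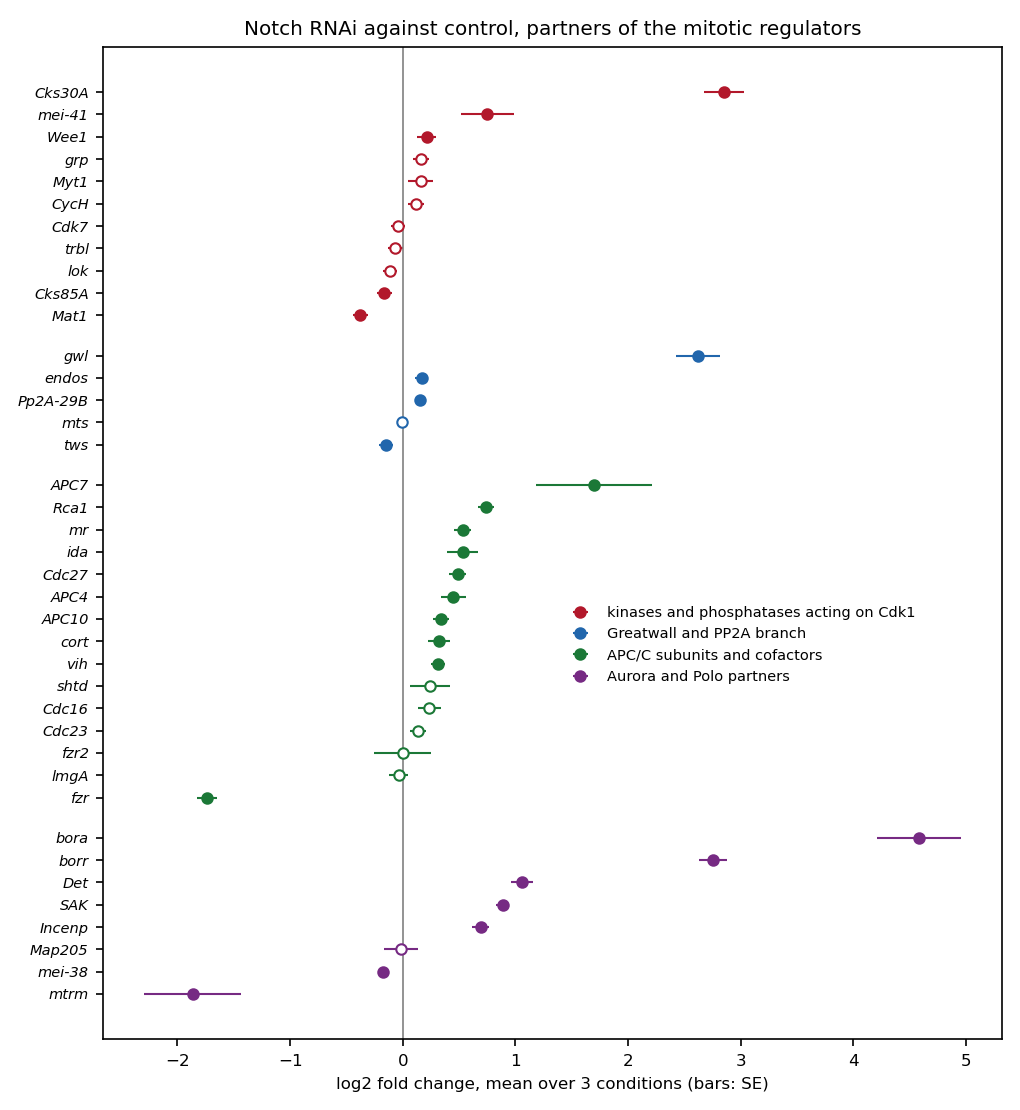
Average log2 fold change of Notch RNAi against control over the 3 microbial conditions for the 39 partner genes, grouped by list (points; bars are SE; filled points passed the test). Cks30A, gwl, borr and bora lie between 2.63 and 4.59, fzr at -1.74 and mtrm at -1.87, and most other partners lie within 1 of 0.

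The partners were also compared between microbial conditions. With L. brevis against germ-free Notch RNAi flies, 7 of the 39 were called, all higher, among them bora (log2 fold change 1.90, edgeR adjusted p = 0.0187), gwl (1.16, adjusted p = 0.0221), borr (1.00, adjusted p = 0.00459) and Det (0.69, adjusted p = 0.0148). Of all genes, 9.36% were called in this comparison. The count of partners was 1 without germ-free replicate 2 or L. brevis replicate 2, 2 without germ-free replicate 1, 3 without L. brevis replicate 1 and 4 without germ-free replicate 3. The shares of all genes in these fits are those given above for the members. Against L. plantarum 9 were called in Notch RNAi flies, 7 higher and 2 lower with L. brevis, and the count was 2 without L. plantarum replicate 2, 3 without L. brevis replicate 2, 4 without L. plantarum replicate 1, 5 without L. brevis replicate 1 and 16 with DESeq2, beside 14.4% of all genes with all libraries and the shares given above for the members. In controls 4 were called with L. brevis against germ-free flies: Cks30A (1.28, edgeR adjusted p = 0.0298), borr (0.91, adjusted p = 0.0254) and Det (0.91, adjusted p = 0.0119) were higher, and trbl, an inhibitor of String named here after its values were seen, was lower (-0.68, adjusted p = 0.00862). These 4 of 39 stand beside 7.97% of all genes, a count near the background. The count was 0 in a fit of these 2 groups alone, 1 without either germ-free control, 2 without L. brevis control replicate 1 and 7 with DESeq2. Of all genes, 0.0% were called in the fit of these groups alone, 1.67% without germ-free control replicate 1, 0.286% without germ-free control replicate 2, 2.14% without L. brevis control replicate 1 and 12.3% with DESeq2. L. plantarum against germ-free flies called 0 partners in either genotype with edgeR, beside 0.136% of all genes under Notch RNAi and 0.161% in controls. DESeq2 called 1 partner in each genotype, beside 1.32% and 2.68% of all genes, counts near the background.

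The genes whose profile over the 17 libraries was most like the mean profile of the 10 members were CG12926, HP4, SMC2, CG3703 and RnrL, out of 9233 genes compared that had a mean count of at least 50. Their root-mean-square differences from the members' mean, on centred log2 CPM, were 0.147, 0.151, 0.152, 0.153 and 0.162. Of the members, polo was nearest to that mean with 0.0799 and twe farthest with 1.14. SMC2 is a condensin subunit that compacts chromosomes in mitosis, and RnrL is the large subunit of ribonucleotide reductase, which supplies DNA precursors. The average Notch RNAi log2 fold change of these 5 genes ran from 1.69 for SMC2 to 1.88 for CG3703.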

How the data were processed

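Whole-number read counts per gene for 17 libraries were deposited by the authors. Per the submitters' processing notes, FastQC, Trimmomatic, HISAT2, SAMtools and edgeR were used; versions, counting tool, strand use and genome build are not given in the sources used here. Authors' log2 fold changes, p-values and false discovery rates come from 8 deposited tables, whose columns, per the file headers, hold these values.

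Counts were analysed with edgeR 4.0.16 (R 4.3.3): filterByExpr kept 11786 genes, TMM scaling, and 1 robust quasi-likelihood fit over 6 group means, adjusted over all genes (Benjamini-Hochberg, threshold 0.05). Common biological variation was 0.230. SEs derive from F statistics; intervals are 95%. Ratios of members are described without a test. DESeq2 1.42.0 and the other alternatives are in the closing section. On simulated counts the pipeline was tested before use. Replicate libraries differed by more than sampling noise, and p-values measure the spread between these libraries. Symbols matched 17599 of 17737 identifiers; esg was not analysed here. Coordinates and exon lengths are Ensembl's for BDGP6, which may differ from the authors' build. Named genes are the members, Notch, up to 5 called genes per partner list with the largest changes, those called against their list's direction, and the 5 nearest profiles. Members and lists were chosen with earlier results of these data known.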

Additional observations from a re-analysis of the deposited data

Results flagged for a closer look

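The Notch RNAi effect on trbl (tribbles), which promotes the destruction of String, differed between L. plantarum and germ-free flies, a difference of effects that passed its own test. trbl had between 35.6 and 46.9 CPM in Notch RNAi libraries with L. plantarum, against 29.5 to 31.9 CPM in controls with L. plantarum. It had between 25.8 and 30.7 CPM in germ-free Notch RNAi libraries, against 42.0 to 48.3 CPM in germ-free controls. The log2 fold change was 0.47 with L. plantarum and -0.66 in germ-free flies, a difference of 1.14 (edgeR adjusted p = 0.0246). Over 17 alternatives the difference ran from 1.03 to 1.25 and passed the test in 7, with an adjusted p of 0.427 without germ-free control replicate 1 at the highest. It also missed the threshold in the fits without germ-free Notch RNAi replicate 1, 2 or 3 (adjusted p = 0.0614, 0.105 and 0.0707), without L. plantarum control replicate 1 or 3 (0.0996 and 0.0953), without L. plantarum Notch RNAi replicate 2 or 3 (0.0852 and 0.0535), with the replicate block (0.0584) and in a fit of these groups alone (0.133). trbl was named after its values were seen.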

How the results depend on the processing

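Of 179 alternative values of the 13 counts of called members, 167 stayed within 1.5 times the value with all libraries. The others were L. brevis against germ-free controls, with 0 called in edgeR against 2 with DESeq2 and 0 to 1 when a library was left out; L. plantarum against germ-free controls, with 1 called by DESeq2; L. brevis against L. plantarum controls, with 0 to 1 when a library was left out; and, under Notch RNAi, L. brevis against germ-free flies, with 2 to 7, and against L. plantarum, with 1 to 7 when a library was left out. The share of all genes called moved in these fits as well, as given above. The cause was not tested.

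The 40 Notch RNAi effects of members kept their direction in all 570 alternatives, and the 8 members other than aurA and twe kept every call. twe reversed in the comparisons of L. brevis under Notch RNAi: against germ-free flies the log2 value was -0.00240 in a fit of the compared groups alone and ran from -0.12 to 0.12 when a library was left out, and against L. plantarum from -0.0117 to 0.18. Of 655 alternatives of partner values, added after seeing the data, 0 reversed and 81 lost a call. The 4 ratios, likewise chosen after seeing the data, kept the direction of their average difference without any single library. Leaving ribosomal RNA genes out of the totals raised member CPM by 1.14 to 1.17 times, and no alternative scaling or left-out library moved the median log2 fold change of all genes by more than 0.0419.

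No pairing of libraries by the replicate numbers in the titles was seen: deviations from group means of same-numbered libraries correlated with a median r of 0.0117 (-0.140 to 0.155, 40 pairs), against -0.00360 (-0.233 to 0.238, 80 pairs) for other pairs. With so few libraries per group, these values cannot show whether same-numbered libraries shared a batch. With the replicate block 8 members were called in germ-free flies for Notch RNAi, beside 30.9% of all genes. Under Notch RNAi the block gave 7 for L. brevis against germ-free and 5 against L. plantarum, beside 9.41% and 14.8% of all genes. Counts were lowest for aurA, CycB and CycB3, with as few as 32, 45 and 59 in a control library.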
